A study of Mus musculus with 24 samples.

Results

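Silencing of Tead1 and Tead4 in proliferating C2C12 cells was examined at day 0, before the cells were switched to differentiation medium. C2C12 is an established line of mouse myoblasts, from the C3H strain according to the labels. The comparison comprised 4 of the 24 RNA-seq libraries of the series, chosen by cell type, day and siRNA. In 2 libraries the cells had received an siRNA against luciferase (siControl), and in the other 2 they had received siRNA pools against Tead1 and Tead4 together (siTead1/4). No other agent or allele distinguished the groups, and RNA was collected 24 h after transfection from growing cultures, labelled as 2 biological replicates per group. C2C12 cells at day 3 and day 6 of differentiation and primary myoblasts (PMs) of C57/B6 mice at day 0, each transfected with the same siRNAs, are used beside them. Since this is 1 line and 1 siRNA combination, an effect of silencing either factor alone cannot be told apart from that of both.

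Tead1 to Tead4 are transcription factors with a TEA domain that binds the MCAT element, a short DNA motif found in the control regions of many muscle genes. They activate transcription weakly alone and recruit cofactors, among them Yap1 and its relative Taz, the product of Wwtr1, and the Vgll proteins. The Hippo kinase cascade restrains Yap1 and Taz by phosphorylation, which keeps them out of the nucleus. In myoblasts, which divide until serum is withdrawn and then fuse into contractile myotubes, Tead4 is known as a target of Myod1.

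The total count on genes was 33317817 and 52784510 in the siControl libraries and 36312586 and 25453830 in the siTead1/4 libraries. The siTead1/4 replicates lay further apart than the siControl replicates, with an SD of the log2 difference between replicates of 0.527 against 0.289. Markers of myoblasts were present in all 4 libraries, and none of the 12 markers tested was called (defined below). Myod1, the myogenic master regulator, was at 144 and 133 CPM (counts relative to the TMM-scaled library total of edgeR) in siControl cells and at 79.7 and 137 CPM in siTead1/4 cells. The myoblast list summed to 2480 and 2166 CPM in siControl cells, 1362 CPM in siTead1/4 replicate 1 and 2875 CPM in replicate 2. Summed over their lists, endothelial markers reached 5.36 to 7.79 CPM and macrophage markers 8.91 to 12.1 CPM in the 4 libraries. Adipocyte markers reached 71.9 to 94.3 CPM, and Schwann and glial markers 78.3 to 151.7 CPM. Fibroblast markers reached 989 to 1943 CPM, and osteoblast and cartilage markers 4258 to 5441 CPM. The last list was above that of myoblasts in each library, with Spp1 as its highest member. Such a sum can rest on few genes, so it does not rank the cell types. Of the 12 endothelial genes, Cldn5, Emcn and Erg were at 0 in all 4, and 5 were expressed enough to be tested.

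Of the targeted genes, Tead4 (chromosome 6 of mm9, 128174306 to 128250841) was at 19.8 and 22.2 CPM in siControl cells and at 4.55 and 4.54 CPM in siTead1/4 cells. Tead4 fell by 2.21 on the log2 scale (SE 0.37, edgeR adjusted p = 0.036), to similar levels in both siTead1/4 replicates. Tead1 (chromosome 7, 119822832 to 120050319) was at 74.6 and 118 CPM in siControl cells, and at 30.0 and 4.78 CPM in siTead1/4 cells. Both siTead1/4 libraries were thus below both siControl libraries, but the residual level was higher in replicate 1 than in replicate 2. The log2 fold change of Tead1 was -2.46 (SE 0.66, edgeR adjusted p = 0.168) and did not pass the threshold, and it lay between -4.34 and -1.69 with 1 library left out. DESeq2 called it (adjusted p = 0.00321). Every result that follows rests on these unequal levels of residual Tead1.

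Among the other members of the family, Tead3 was at 20.9 and 22.2 CPM in siControl cells and at 31.5 and 40.5 CPM in siTead1/4 cells (log2 fold change 0.74, edgeR adjusted p = 0.245). Tead2 was at 91.2 and 79.8 CPM against 59.7 and 90.4 CPM, with overlapping groups. Neither passed the threshold. Of the cofactors, Wwtr1 fell. It was at 159.7 and 178 CPM in siControl cells and at 81.7 and 86.4 CPM in siTead1/4 cells, so that the groups did not overlap (log2 fold change -1.01, SE 0.17, edgeR adjusted p = 0.0399). Yap1 was at 128 and 132 CPM against 166 and 141 CPM and was not called (log2 fold change 0.24, SE 0.18). Vgll3 (log2 fold change -0.17) and Vgll4 (0.60) were not called either. Vgll2 was at 10.6 and 13.5 CPM in siControl cells, at 9.25 CPM in siTead1/4 replicate 1 and at 43.5 CPM in replicate 2. Of the 9 Tead factors and cofactors tested, 2 fell, 0 rose and 7 did not pass the threshold.

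Calls required that edgeR's quasi-likelihood test, fitted on the 12 C2C12 libraries, gave a p below 0.05 after Benjamini-Hochberg adjustment and that the log2 fold change lay beyond 1 in either direction. Of 15303 genes tested, 21 rose (0.137%) and 46 fell (0.301%), and the median log2 fold change of all genes was 0.0174. All 67 code for proteins. Both siTead1/4 libraries lay on one side of both siControl libraries for every called gene, which held for 18.2% of all tested genes on the higher side and 17.9% on the lower side. In siControl cells the genes that fell had a median of 74.6 CPM, against 20.4 CPM over all tested genes. Those that rose had a median of 1.52 CPM there, with 10 of 21 under 1 CPM. Part of this contrast follows from the selection, since siControl is the group in which falls are higher and rises lower. In siTead1/4 cells the means ran from 1.16 to 147 CPM for the falls and from 1.13 to 39.1 CPM for the rises. At the limit on size, Wwtr1 (-1.01) and Pigc (1.03) lay just inside, and Prkrir (log2 fold change -0.97, edgeR adjusted p = 0.0369) just outside. DESeq2 called 108 genes up (0.779%) and 147 down (1.06%), including all 67. No gene was called when the spread was estimated from the 4 libraries of the comparison alone, where 1151 genes had an unadjusted p under 0.05, or without siControl replicate 1 (1122 genes) or replicate 2 (1047 genes). Without siTead1/4 replicate 1, 43 genes rose and 70 fell, and without replicate 2 these were 11 and 31. All 67 log2 fold changes kept their sign in these fits. This adds no support, since the groups did not overlap for any of them.

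The fall of largest size was that of Ngfr, the low-affinity neurotrophin receptor p75 (chromosome 11, 95430132 to 95449049). It was at 20.9 and 16.2 CPM in siControl cells and at 1.22 and 1.20 CPM in siTead1/4 cells, a 15.2-fold decrease (log2 fold change -3.93, SE 0.39, edgeR adjusted p = 0.0102). Ngfr is also a marker of Schwann cells and glia, and edgeR called none of the other 6 markers tested of that list. Sox10 and Foxd3, which define the lineage and were too low to be tested, were at most at 0.019 CPM and at 0. Pmp22, a myelin protein found in many cell types, was at 122 and 90.02 CPM in siControl cells and at 63.2 and 73.2 CPM in siTead1/4 cells (log2 fold change -0.64, edgeR adjusted p = 0.537). Mbp, the myelin basic protein, went the other way, at 1.76 and 1.83 CPM against 6.63 and 4.74 CPM (log2 fold change 1.67, edgeR adjusted p = 0.1598), and DESeq2 called it up (adjusted p = 0.0207). The summed level of the list was 151.7 and 116 CPM in siControl cells and 78.3 and 84.4 CPM in siTead1/4 cells, and its part in the result for Ngfr was not tested.

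The neurofilament genes Nefm and Nefl, which encode the medium and light subunits of neuronal intermediate filaments, fell together. Nefm was at 87.6 and 84.7 CPM in siControl cells and at 16.4 and 22.1 CPM in siTead1/4 cells (log2 fold change -2.16, SE 0.31, edgeR adjusted p = 0.0252). Nefl was at 119.9 and 111 CPM against 20.04 and 31.6 CPM (log2 fold change -2.16). Both are on chromosome 14 and their gene spans overlap in the annotation of the table, with Nefl lying inside the span given for Nefm, so that reads shared by them cannot be told apart. Sema4f, a transmembrane semaphorin of the axon guidance family, was at 21.1 and 9.86 CPM in siControl cells and at 2.47 and 3.15 CPM in siTead1/4 cells (log2 fold change -2.46). Its siControl libraries differed from each other by more than its siTead1/4 libraries did.

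**Figure D1:**
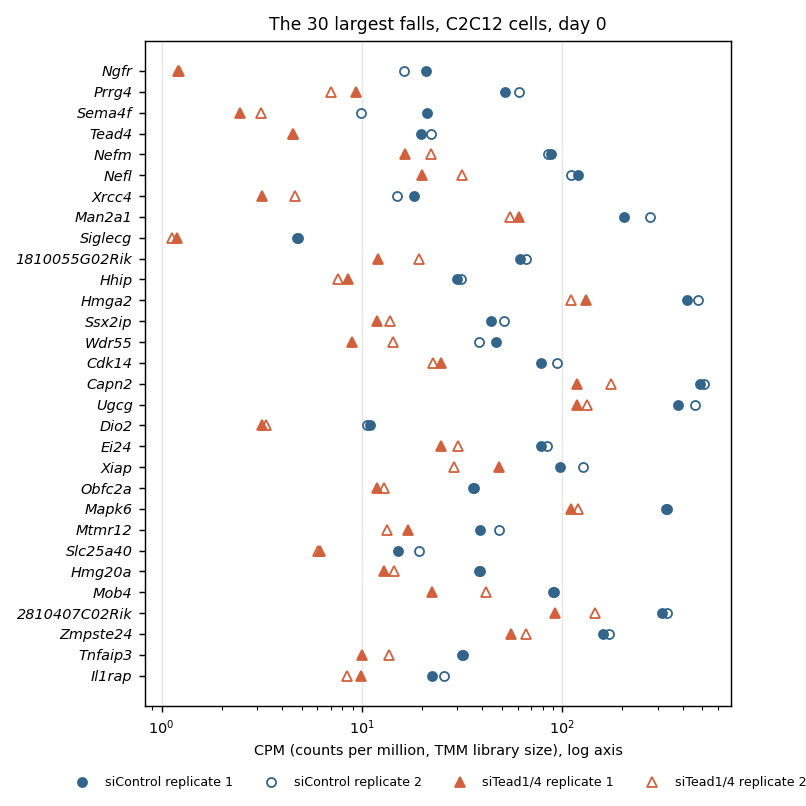
Level of the 30 genes with the largest falls, as CPM on a log axis, in the 2 siControl libraries (circles) and the 2 siTead1/4 libraries (triangles) of C2C12 cells at day 0, with filled symbols for replicate 1, ordered from the largest fall (Ngfr) down to Il1rap. No siTead1/4 library reaches a siControl library for any of the 30.

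Several other receptors and regulators of signalling fell. Prrg4, a transmembrane protein with a Gla domain, was at 51.6 and 60.7 CPM in siControl cells and at 9.35 and 7.03 CPM in siTead1/4 cells (log2 fold change -2.77, SE 0.31, edgeR adjusted p = 0.0102). Hhip, which binds Hedgehog ligands and limits their signal, was at 30.0 and 31.4 CPM against 8.54 and 7.57 CPM (log2 fold change -1.93). It was the only one of 12 tested genes of the Hedgehog list that was called, and Gli1, a target of the pathway, was at 4.92 and 4.17 CPM against 10.3 and 7.92 CPM and was not called (log2 fold change 1.002, edgeR adjusted p = 0.428). Il1rap, the accessory chain of the interleukin 1 receptor (-1.39), and Tnfaip3, the ubiquitin-editing enzyme A20 that restrains NF-κB (-1.43), were also lower in siTead1/4 cells. Dio2, which converts thyroxine to the active thyroid hormone, was at 10.9 and 10.6 CPM in siControl cells and at 3.16 and 3.34 CPM in siTead1/4 cells (log2 fold change -1.73).

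Mob1b, an activator of the Lats kinases of the Hippo cascade, fell from 85.3 and 109 CPM to 47.0 and 41.1 CPM (log2 fold change -1.14, SE 0.19, edgeR adjusted p = 0.0339). Its paralog Mob1a was at 267 and 313 CPM against 325 and 290.4 CPM, with overlapping groups. Mob1b was the only called gene of the 23 Hippo regulators tested, whose median log2 fold change was -0.05. Stk3 (Mst2), the upstream kinase, was at 63.6 and 63.2 CPM against 32.6 and 34.4 CPM. Its log2 fold change of -0.92 (edgeR adjusted p = 0.051) was outside both limits. Lats2, a kinase of the cascade and a known Yap-Tead target, was not called (log2 fold change -0.47).

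Genes of growth and of the cell's kinases were also among the falls. Hmga2, a chromatin protein of proliferating embryonic cells, was at 422 and 476 CPM in siControl cells and at 132 and 110.3 CPM in siTead1/4 cells (log2 fold change -1.89). Cdk14, a cyclin Y-dependent kinase, was at 78.0 and 94.7 CPM against 24.8 and 22.8 CPM (log2 fold change -1.86). Mapk6, the atypical kinase Erk3 (-1.53), and Cdk8, the kinase of the Mediator complex (-1.04), fell by less, and the span of Cdk8 overlaps that of the microRNA gene Mir5105, which had more counts and a log2 fold change of -0.12. Xiap, which inhibits caspases, was at 97.4 and 127 CPM in siControl cells and at 48.2 and 28.7 CPM in siTead1/4 cells (log2 fold change -1.55). Xrcc4, a cofactor of DNA ligase IV in end joining, was at 18.2 and 14.9 CPM against 3.18 and 4.66 CPM (log2 fold change -2.09), and its span overlaps that of Tmem167, which had more counts and a log2 fold change of -0.06.

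Further falls were in enzymes of the secretory pathway and of membranes. Man2a1, a Golgi mannosidase that trims N-glycans, was at 205 and 275 CPM in siControl cells and at 60.8 and 54.9 CPM in siTead1/4 cells (log2 fold change -2.05, SE 0.27, edgeR adjusted p = 0.0199). Ugcg, the synthase of glucosylceramide, was at 378 and 458 CPM against 119 and 133 CPM (log2 fold change -1.73). Capn2, a calcium-activated protease of most cells that acts in myoblast fusion, was at 490.5 and 513 CPM in siControl cells and at 119 and 175 CPM in siTead1/4 cells (log2 fold change -1.77). Smaller falls were those of Zmpste24, the protease that processes prelamin A (-1.44), and of Agps, an enzyme of ether lipid synthesis (-1.17). Of the remaining falls, Siglecg (a sialic acid-binding lectin), 1810055G02Rik, Ssx2ip (a centrosomal and adherens junction protein) and Wdr55 had log2 fold changes of -2.04, -2.03, -1.89 and -1.87.

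Among the rises, those of secreted and surface proteins included the growth factor Pdgfb, the B chain of platelet-derived growth factor (chromosome 15, 79826330 to 79845238). It was at 5.57 and 6.75 CPM in siControl cells and at 24.3 and 51.3 CPM in siTead1/4 cells, a 6.12-fold increase (log2 fold change 2.61, SE 0.39, edgeR adjusted p = 0.0275). Of 44 growth factors and receptors tested, Pdgfb rose, Ngfr fell and 42 did not pass the threshold. Il1f9, which encodes interleukin 36 gamma, was at 0.238 and 0.391 CPM against 2.84 and 3.50 CPM (log2 fold change 3.28). Cdh1, the epithelial cadherin, was at 0.298 and 0.484 CPM in siControl cells and at 1.61 and 2.02 CPM in siTead1/4 cells (log2 fold change 2.17). Its raw counts were 10 and 26 against 66 and 52, so this is a rise at a low level. Tgfbi, a matrix protein induced by Tgfb (2.58), and Smoc1, a calcium-binding matrix protein (2.17), rose likewise from levels under 2 CPM.

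The rise of largest size was that of Ccdc68, a centriolar protein. It rested on 2 and 4 counts in the siControl libraries and 118 and 45 counts in the siTead1/4 libraries. At these totals the summed counts gave a 35.6-fold ratio, with an exact 95% interval of 16.0 to 98.3 that covers counting error only (edgeR log2 fold change 5.03, SE 0.54, adjusted p = 0.0102). In every C2C12 library but the siTead1/4 ones of day 0, Ccdc68 was at most at 0.135 CPM. It thus passed the filter on low counts only through the group in which it was high. Bmf, a pro-apoptotic protein of the BH3-only class, was at 1.55 and 1.49 CPM in siControl cells and at 19.6 and 5.94 CPM in siTead1/4 cells (log2 fold change 3.08). It was highest in siTead1/4 replicate 1. Ifitm1, an interferon-induced membrane protein, was at 2.74 and 1.58 CPM against 15.5 and 15.2 CPM (log2 fold change 2.84, SE 0.36, edgeR adjusted p = 0.0192).

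**Figure D2:**
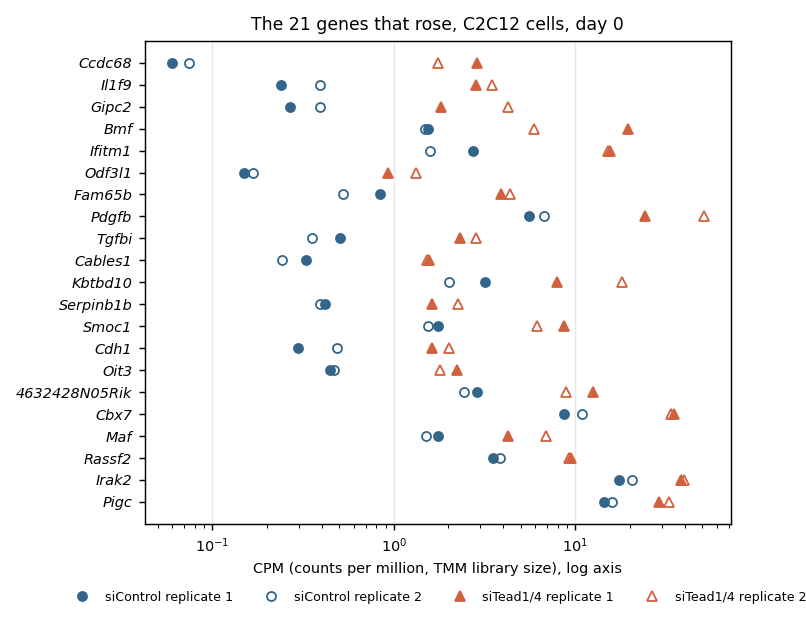
Level of each of the 21 genes that rose, as CPM on a log axis, in the 2 siControl libraries (circles) and the 2 siTead1/4 libraries (triangles) of C2C12 cells at day 0, with filled symbols for replicate 1, ordered by the size of the rise. In siControl cells 10 of the 21 lie under 1 CPM, and Irak2 and Pigc, which lie above 14 CPM, have the smallest rises.

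Kbtbd10, a kelch protein of the sarcomere, was at 3.19 and 2.01 CPM in siControl cells and at 7.90 and 18.2 CPM in siTead1/4 cells (log2 fold change 2.33). Nuclear proteins that rose were Cbx7, a Polycomb subunit that reads histone methylation, and Maf, a basic leucine zipper factor. Cbx7 was at 8.67 and 10.8 CPM against 35.1 and 33.7 CPM (log2 fold change 1.82), and its span overlaps that of Apobec3, which had more counts and a log2 fold change of 0.42. Maf was at 1.76 and 1.51 CPM against 4.28 and 6.91 CPM (log2 fold change 1.77). Irak2, a kinase-like adaptor of interleukin 1 and Toll-like receptor signalling, was at 17.3 and 20.6 CPM in siControl cells and at 38.3 and 39.9 CPM in siTead1/4 cells (log2 fold change 1.04). Gipc2, Odf3l1, Fam65b, Cables1, Serpinb1b and Oit3 rose by 3.15, 2.78, 2.62, 2.45, 2.25 and 2.13 on the log2 scale from means under 1 CPM.

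Since Tead factors bind the MCAT element, the promoters of the called genes were searched for its core CATTCC on either strand, read on the minus strand as GGAATG. RefSeq promoters of the GRCm38.p6 build, from 250 bases before to 50 bases after the start, were found for 49 of the 67 genes. The core was present in 5 of 44 promoters of genes that fell (11.4%), in 3 of 18 promoters of genes that rose (16.7%) and in 4817 of all 32851 promoters (14.7%). The shares of called genes were thus near that of all promoters. The paper places the Tead4 sites of undifferentiated C2C12 cells mainly away from transcription starts. Such distant sites were not searched, so these shares do not bear on binding there. The matches belonged to 7 genes, of which Pigc (rose) and 2810407C02Rik (fell) are not shown, and a match is a description of the letters and no evidence of binding. The region around the core, with up to 50 bases on either side, is shown 5′ to 3′ along the gene for 3 falls and 2 rises that hold it, with the core in capitals, so that its surroundings can be compared between genes of opposite response. The windows are chr3:57575991-57576096, minus strand, for Wwtr1, chr12:90739019-90739124, minus strand, for Dio2, chr14:46822295-46822400, minus strand, for Gmfb, chr13:33083947-33084052, plus strand, for Serpinb1b, and chr2:132030482-132030574, minus strand, for Rassf2.
Wwtr1: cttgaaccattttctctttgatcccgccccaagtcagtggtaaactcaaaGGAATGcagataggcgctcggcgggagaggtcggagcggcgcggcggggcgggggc
Dio2: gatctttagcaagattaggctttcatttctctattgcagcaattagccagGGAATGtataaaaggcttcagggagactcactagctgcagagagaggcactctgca
Gmfb: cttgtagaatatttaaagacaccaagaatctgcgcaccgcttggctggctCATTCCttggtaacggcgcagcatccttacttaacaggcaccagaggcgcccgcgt
Serpinb1b: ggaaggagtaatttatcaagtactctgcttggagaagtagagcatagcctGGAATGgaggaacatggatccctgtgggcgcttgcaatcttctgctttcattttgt
Rassf2: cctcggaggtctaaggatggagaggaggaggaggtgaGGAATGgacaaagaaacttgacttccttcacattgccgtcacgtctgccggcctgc
In Dio2 the core began 36 bases before the start. In Wwtr1 and Rassf2 it began 170 and 213 bases before the start, and in Gmfb (which encodes glia maturation factor beta, log2 fold change -1.37) and Serpinb1b 108 and 106 bases before it. Rassf2, a Ras-association domain protein that binds Mst kinases, was at 3.52 and 3.84 CPM in siControl cells and at 9.49 and 9.28 CPM in siTead1/4 cells (log2 fold change 1.35).

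The same siRNAs were given to PMs, whose libraries took no part in the choice of the 67 genes. In PMs at day 0, 1.5% of tested genes rose and 1.1% fell. Of the 46 genes that fell in C2C12 cells, 42 had a log2 fold change below 0 in PMs and 16 were called down there, with a median of -0.95 against -0.0143 for all 14577 genes that both fits tested. Of the 21 that rose, all 21 were above 0 in PMs and 5 were called up, with a median of 0.644. Their log2 fold changes in PMs ran from 0.09 (Cdh1) to 2.91 (Ifitm1). In siControl PMs 8 of the 21 rises and 2 of the 46 falls had a mean under 1 CPM. None of the 67 was called in the opposite direction. The counts of shared calls rest on the C2C12 calls, which were lost without either siControl library of C2C12 cells, so those fits say nothing about PMs. The 5 that rose in both were Ifitm1, Bmf, Pdgfb, Cbx7 and 4632428N05Rik, which encodes the immune checkpoint protein VISTA. The size was larger in C2C12 cells than in PMs for 20 of the 21 rises and 44 of the 46 falls in this set, which was selected in C2C12 cells.

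Tead4 itself was at 64.2 and 59.5 CPM in siControl PMs and at 13.1 and 10.98 CPM in siTead1/4 PMs (log2 fold change -2.36), close to its fold change in C2C12 cells. Capn2 fell from 339 and 321 CPM to 129 and 128 CPM in PMs (log2 fold change -1.36). Man2a1 was at 104 and 93.6 CPM against 36.7 and 40.5 CPM (log2 fold change -1.35), and Xiap at 85.1 and 82.2 CPM against 37.0 and 42.8 CPM (-1.07). These 4 genes were called down in both cell types. Wwtr1 was at 111 and 126 CPM in siControl PMs and at 90.7 and 113 CPM in siTead1/4 PMs, with overlapping groups. Its log2 fold change of -0.22 was not called.

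**Figure D3:**
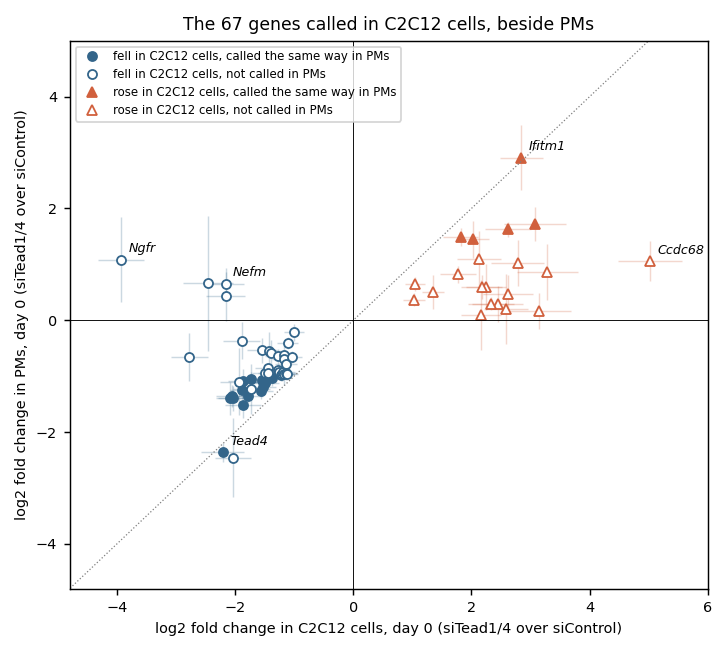
Log2 fold change (siTead1/4 over siControl) of the 67 genes called in C2C12 cells at day 0, in C2C12 cells (x axis) and in PMs (y axis), with bars of 1 SE and a dotted line of equal change. Filled symbols mark the 21 genes called the same way in PMs, and Ngfr, Nefm, Nefl and Sema4f are the 4 falls that lie above 0 in PMs.

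The 4 genes that fell in C2C12 cells with a log2 fold change above 0 in PMs were Ngfr (1.08), Sema4f (0.66), Nefm (0.66) and Nefl (0.42), of which none was called in PMs. Ngfr was at 5.55 and 6.06 CPM in siControl PMs and at 10.2 and 14.3 CPM in siTead1/4 PMs, so that its groups were separate in opposite directions in the 2 cell types. Nefm was low in PMs, at 1.71 and 1.49 CPM against 2.64 and 2.43 CPM. In a test of the difference itself, with all 24 libraries in one fit, 0 genes were past the threshold upwards and 1 downwards (0.00591%). It was Nefm, with a difference of -2.83 between the log2 fold changes in C2C12 cells and PMs (edgeR adjusted p = 0.0267). Without siControl replicate 1 or 2 it was 0 genes, without siTead1/4 replicate 1 it was 77 and without replicate 2 it was 2, and DESeq2 called 32. The differences of Nefl (-2.59, edgeR adjusted p = 0.2), Ngfr (-5.01, edgeR adjusted p = 0.2) and Ccdc68 (3.96, edgeR adjusted p = 0.0788) did not pass the threshold, but DESeq2 called Ngfr (adjusted p = 0.00152) and Ccdc68.

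At day 3 of differentiation 0.19% of tested genes rose and 1.08% fell in siTead1/4 C2C12 cells, and at day 6 0.0131% and 0.0327%. Of the 46 genes that fell at day 0, 35 were below 0 at day 3 and 6 were called down, and the median moved from -1.51 at day 0 to -0.229 at day 3 and -0.221 at day 6. The 6 were Tead4, Prrg4, Sema4f, Nefm, Nefl and Ssx2ip. Of these, Nefm and Nefl were low at day 3. Nefm was at 1.76 and 1.94 CPM in siControl cells and at 0.377 and 0.46 CPM in siTead1/4 cells. Of the 21 that rose at day 0, 19 were above 0 at day 3 and none was called, and the median moved from 2.33 to 0.683 and 0.441. At day 6 no gene of the 67 was called in its day 0 direction. Each day had its own siControl libraries.

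**Figure D4:**
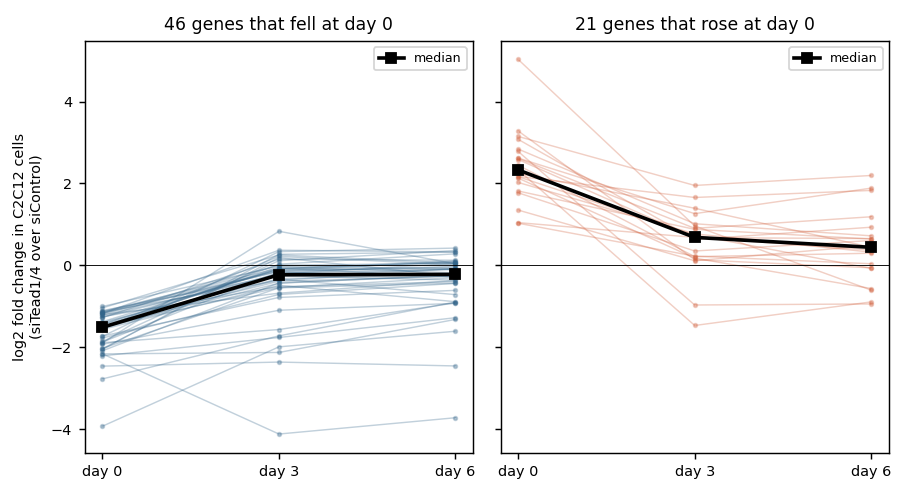
Log2 fold change (siTead1/4 over siControl) in C2C12 cells at days 0, 3 and 6 of the 46 genes that fell (left) and the 21 that rose (right) at day 0, 1 line per gene, with the median in black. The medians lie closer to 0 at day 3 (-0.229 and 0.683) than at day 0 (-1.51 and 2.33). The line that drops lowest at day 3 is Nefl (-4.12), which was then at 1.06 and 1.65 CPM in siControl cells.

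The size was smaller at day 3 than at day 0 for 45 of the 46 falls and for all 21 rises, again in genes selected at day 0. The exception was Nefl, with a log2 fold change of -4.12 at day 3. It was near the floor there, at 1.06 and 1.65 CPM in siControl cells and at 0.135 and 0.023 CPM in siTead1/4 cells. In the test of the difference between day 3 and day 0, edgeR called 0 genes, with 1745 at an unadjusted p under 0.05, whereas DESeq2 called 328 genes. Hmga2 had log2 fold changes of -1.89 at day 0 and 0.83 at day 3, and Man2a1 of -2.05 and 0.27. Neither difference passed the threshold in edgeR.

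Lists of genes with known roles were then counted. Over all tested genes 10.5% had an unadjusted p under 0.05 in edgeR, 4.99% being higher and 5.48% lower, beside which the counts at that p can be read. Both siTead1/4 libraries lay above both siControl libraries for 18.2% of all tested genes and below both for 17.9%. The counts of list members with separate groups can be read beside these shares. Of the 22 Yap-Tead target genes tested, 0 were called, and the median log2 fold change was -0.192. At an unadjusted p under 0.05 in edgeR there were 1 higher and 4 lower genes, and DESeq2 called 1. Ctgf, the matricellular target best known for this pathway, was at 148 and 117 CPM in siControl cells and at 68.5 and 79.3 CPM in siTead1/4 cells (log2 fold change -0.85, SE 0.88, edgeR adjusted p = 0.834). Ankrd1, a cardiac ankyrin repeat protein, was at 652 and 568 CPM against 251 and 435 CPM (log2 fold change -0.83, edgeR adjusted p = 0.474). Axl, a receptor tyrosine kinase, was at 548 and 698 CPM against 278 and 470.3 CPM (-0.74). The siTead1/4 libraries were below both siControl libraries for 8 of the 22 and above them for 5. Tgfb2 was among the latter, at 11.9 and 11.7 CPM against 32.9 and 29.5 CPM (log2 fold change 1.40, edgeR adjusted p = 0.0582). It was the gene that DESeq2 called.

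None of the 27 tested myogenic regulators was called by edgeR or DESeq2 (median log2 fold change -0.0355, 4 at an unadjusted p under 0.05). Nor was any of the 66 contractile and excitation-coupling genes of muscle, which had a median of -0.304 and 16 genes below and 1 above both siControl libraries. In edgeR 1 of them was higher and 12 were lower at an unadjusted p under 0.05, and DESeq2 called 4 down. Myh3, the embryonic myosin heavy chain, was at 15.6 and 7.55 CPM in siControl cells and at 3.96 and 2.84 CPM in siTead1/4 cells (log2 fold change -1.75, edgeR adjusted p = 0.158). Desmin (Des) was at 916 and 812 CPM in siControl cells, at 429.99 CPM in siTead1/4 replicate 1 and at 1219 CPM in replicate 2. The summed level of the list followed the same pattern, with 3812 and 3220 CPM in siControl cells, 2330.0 CPM in siTead1/4 replicate 1 and 4267 CPM in replicate 2. Without siControl replicate 1 the median was 0.225.

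**Figure D5:**
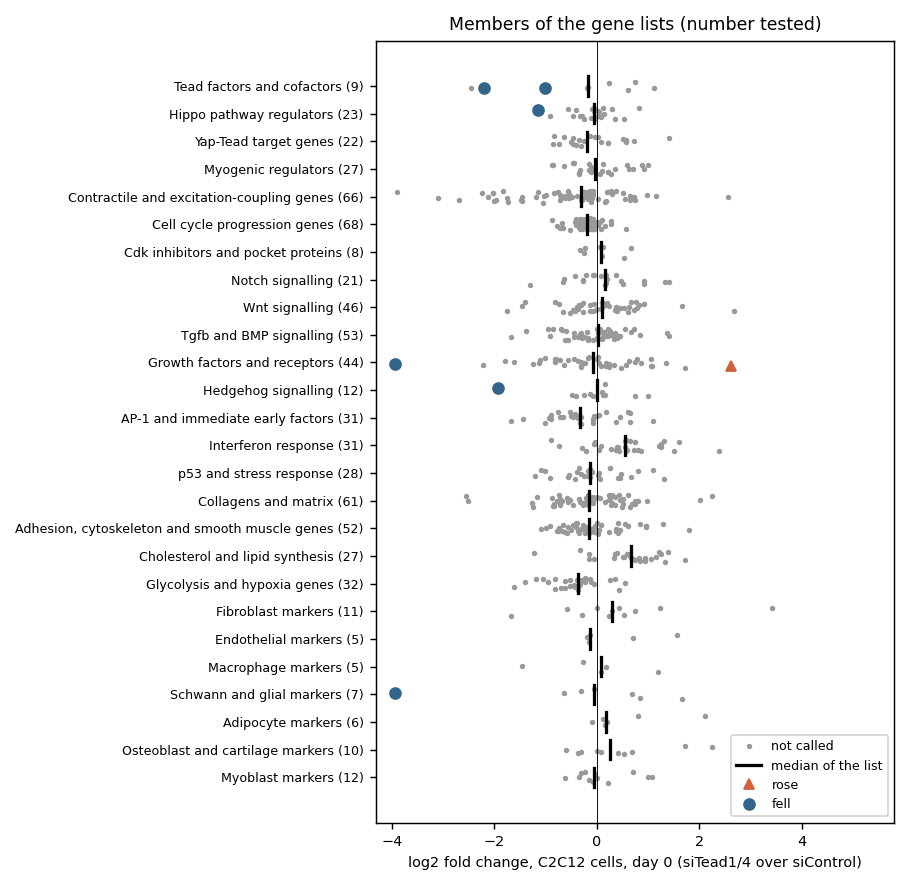
Log2 fold change (siTead1/4 over siControl) at day 0 of every tested member of the 26 gene lists, with the number tested in brackets, the median of each list as a vertical bar, and called genes in colour. A called gene appears in 5 lists, with Ngfr in 2 of them, and the list medians lie between -0.376 (glycolysis and hypoxia) and 0.667 (cholesterol and lipid synthesis).

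Of the 68 cell cycle progression genes tested, none was called by edgeR or DESeq2, the median was -0.183 with 3 lower genes at an unadjusted p under 0.05, and 23 had both siTead1/4 libraries below both siControl libraries. Rrm2, a subunit of ribonucleotide reductase, was at 819.8 and 716 CPM against 436 and 521 CPM (log2 fold change -0.68, edgeR adjusted p = 0.404). Glycolysis and hypoxia genes had a median of -0.376, with 15 of 32 below both siControl libraries and none called by edgeR, where 1 was higher and 8 were lower at an unadjusted p under 0.05. Their summed level was 13490 and 12670 CPM in siControl cells, 7622 CPM in siTead1/4 replicate 1 and 13060 CPM in replicate 2, and the median was -0.14 without the first of these siTead1/4 libraries and -0.708 without the second. Pdk1, which shuts pyruvate out of the citric acid cycle, was at 48.2 and 54.1 CPM against 18.7 and 26.2 CPM (log2 fold change -1.19, edgeR adjusted p = 0.0802), and Egln3, an oxygen-sensing prolyl hydroxylase, at 79.7 and 58.0 CPM against 17.3 and 27.6 CPM (-1.62, edgeR adjusted p = 0.0509). DESeq2 called these and 1 other gene of the list down.

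The 27 genes of cholesterol and lipid synthesis had a median of 0.667 and none was called by edgeR (4 higher and 1 lower at an unadjusted p under 0.05, 1 called by DESeq2). Their summed level was 2722 and 3154 CPM in siControl cells, 2794 CPM in siTead1/4 replicate 1 and 5904 CPM in replicate 2, and without that last library the median was -0.17. Cyp51, which demethylates lanosterol, was at 73.8 and 90.4 CPM in siControl cells, at 83.8 CPM in siTead1/4 replicate 1 and at 307 CPM in replicate 2. Interferon response genes had a median of 0.557, with 15 of 31 above and 2 below both siControl libraries and none called by edgeR (7 higher and 1 lower at an unadjusted p under 0.05, 1 called by DESeq2). Trim25, a ubiquitin ligase of RNA sensing, was at 33.0 and 44.4 CPM against 70.4 and 58.7 CPM (log2 fold change 0.74, edgeR adjusted p = 0.271). Irf1 was at 31.1 and 27.5 CPM against 42.8 and 42.9 CPM (0.55), and Ddx58, the RNA sensor Rig-I, at 8.67 and 7.62 CPM against 5.21 and 3.46 CPM (-0.90).

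edgeR called no gene in the lists of Cdk inhibitors and pocket proteins (8 tested, median log2 fold change 0.0829), Notch signalling (21, 0.152), Wnt signalling (46, 0.0917), Tgfb and BMP signalling (53, 0.0284), AP-1 and immediate early factors (31, -0.322), the p53 and stress response (28, -0.14), collagens and matrix (61, -0.146) or adhesion, cytoskeleton and smooth muscle (52, -0.161). Of their 299 distinct genes, 18 were higher and 35 lower at an unadjusted p under 0.05, and DESeq2 called 5 up and 1 down. Hey1, a target of Notch, was at 10.5 and 7.60 CPM against 18.6 and 26.9 CPM (log2 fold change 1.33, edgeR adjusted p = 0.0829). Fn1, fibronectin, was at 3855 and 4269.7 CPM against 3191 and 1762 CPM (log2 fold change -0.71, edgeR adjusted p = 0.556). Medians of the growth factor and Hedgehog lists were -0.0746 and 0.00467. The marker lists of other cell types had medians of 0.296 for fibroblasts (11 tested), 0.177 for adipocytes (6), 0.247 for osteoblasts and cartilage (10), -0.136 for endothelium (5), 0.0749 for macrophages (5) and -0.0534 for Schwann cells and glia (7), and that of myoblasts was -0.0516. Apart from Ngfr, edgeR called none of these 56 markers, with 5 higher and 2 lower at an unadjusted p under 0.05 (Ngfr included), and DESeq2 called 2 up and 1 down.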

How the data were processed

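RNA was sequenced from poly-A libraries made without strand information. The authors aligned reads to mm9 and deposited 1 table with the raw read count of 28109 genes in each library. The submitters' processing notes name CASAVA 1.8.2, TopHat2 2.0.10, Bowtie2 2.1.0, HTSeq 0.6.1 and DESeq2 1.8.1, without their order. The table also holds normalized values of the listed libraries (48 columns) and 36 columns of 12 libraries that are not listed here, none of which was used. Gene lengths and positions are as deposited.

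Counts of the 12 C2C12 libraries were fitted in R 4.3.3 with edgeR 4.0.16 (filterByExpr, TMM, glmQLFit and glmQLFTest), with 1 mean for each of 6 groups of siRNA and day. PMs were fitted alike, and differences between cell types were tested as contrasts of contrasts over all 24 libraries. P-values were adjusted with the Benjamini-Hochberg method over all tested genes. Each SE was derived from the test, as the absolute log2 fold change over the square root of its quasi-likelihood F statistic. DESeq2 1.42.0 and limma 3.58.1 (voom) served as alternatives. With 2 replicates per group, p-values measure the spread between these samples, which may be technical. Precision is limited by this number and, for weakly expressed genes, also by their counts, with 25453830 to 52784510 counts per library. Which of these limits it more was not tested. Where names were shared by several genes, the single protein-coding gene kept the name.

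The genes called, the 26 gene lists and the tests were chosen with earlier results of these data known. Named genes are the Tead factors and cofactors, the 15 largest rises and 15 largest falls, every called list member with the 4 highest members of each list, and genes past a test of difference. Other genes named (called genes of smaller change, list members not among the highest, markers and overlapping genes) were picked after their values were seen.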

Additional observations from a re-analysis of the deposited data

Results flagged for a closer look

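Nefm was the gene whose response at day 0 differed between the cell types by a test of the difference itself. The value that drew attention was the log2 fold change in C2C12 cells minus that in PMs, -2.83 (edgeR adjusted p = 0.0267). Nefm was at 87.6 and 84.7 CPM in siControl C2C12 cells and at 16.4 and 22.1 CPM in siTead1/4 C2C12 cells, and at 1.71 and 1.49 CPM in siControl PMs and 2.64 and 2.43 CPM in siTead1/4 PMs. The difference lay between -3.07 and -2.64 with 1 C2C12 library left out, with an adjusted p of 0.134 without siControl replicate 1 and 0.126 without siControl replicate 2. Nefl lies within the span given for Nefm, and its difference of -2.59 did not pass the threshold (edgeR adjusted p = 0.2003).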

How the results depend on the processing

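In every alternative run, all called genes that could be tested kept the direction of their change. This adds no support, since the siTead1/4 and siControl libraries did not overlap for any of them. The number of calls depended on how the spread was estimated. Genes up and down, 21 and 46 in the report, were 108 and 147 with DESeq2, 219 and 261 with no filter on low counts, 113 and 132 with all 24 libraries in one fit, and 0 and 0 when the fit held no libraries beyond the 4 compared (1151 genes at an unadjusted p under 0.05). They were 27 and 55 with the replicate block, which kept 18 of the rises and 43 of the falls (adjusted p of Hmga2 0.0502 and of Cables1 0.0528), and 37 and 83 with a crossed replicate block, which was chosen after seeing the data. Deviations of same-numbered libraries correlated across genes, which are not independent replicates, with r = -0.304 between the groups compared. Over 15 pairs of C2C12 groups r lay between -0.367 and 0.636, and 7 were over 0.1. Among the siControl groups of days 0, 3 and 6 it was 0.288 to 0.528. The siTead1/4 group of day 0 had r of -0.304, -0.367 and -0.32 with these. For the groups compared, the numbers were therefore not taken to pair samples. With 1 library left out, where the lone library of a group is assumed to vary like the other groups, they lay between 0 and 43 up and between 0 and 70 down, with none called without either siControl library (1122 and 1047 genes at an unadjusted p under 0.05). The effect differed between C2C12 cells and PMs for 32 genes with DESeq2, 88 without the filter and 5 with the replicate block (Nefm, Ngfr, Ccdc68, Gipc2 and Pstpip1) against 1 in the report (0 to 77 with 1 library left out), and between day 3 and day 0 for 328, 745 and 5 against 0 (0 to 25). Genes up in both cell types, 5 in the report, were 21 with DESeq2, 47 without the filter and 8 with the replicate block (0 to 5 with 1 library left out), and genes down in both, 16 in the report, were 42 and 63 with the first 2 of these (0 to 14). The median log2 fold change of Yap-Tead targets was -0.0672 with limma voom and lay between -0.289 and -0.0882 with 1 library left out (nearest to 0 without siControl replicate 2 or siTead1/4 replicate 2). The same ranges were -0.78 to 0.225 for contractile genes (above 0 without siControl replicate 1), 0.254 to 0.602 for interferon response genes (lowest without siTead1/4 replicate 1), -0.708 to -0.14 for glycolysis and hypoxia genes and -0.17 to 1.17 for cholesterol and lipid synthesis (below 0 without siTead1/4 replicate 2). The cause of these shifts was not tested. Counts under RLE size factors (24 and 51), limma voom (19 and 59) and a minimum of 10 counts in each of the 4 libraries (22 and 61) stayed within 1.5 times those of the report. The genes changed more than the counts, since voom kept 14 of the 21 rises and 44 of the 46 falls, losing Tead4 (adjusted p = 0.0762), Bmf, Fam65b, Cables1, Kbtbd10 and Cdh1 among the genes with the largest changes.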
